A study of Caenorhabditis elegans with 6 samples.

Results

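Transcript abundance was described in untreated Caenorhabditis elegans, read from the control channel of 6 two-colour arrays. On each array RNA of control worms had been hybridized together with RNA of worms grown on a low dose mixture (LDM) of chlorpyrifos and diazinon, both organophosphorus insecticides. The 6 control channels were taken out of the 12 labelled channels of the series, and no treated channel was used. Control RNA carried the dye Cy3 on 3 arrays, here Cy3 control 1 to 3, and the dye Cy5 on the other 3, here Cy5 control 1 to 3. All control worms were of the wild type Bristol strain N2. They hatched from bleached eggs on agar plates with E. coli OP50 as food and with acetone, the solvent in which the pesticides were given. Worms were collected at 72 h of age after growth at 16 °C. The labels place them at the L3/L4 larval stages (the treatment protocol names L3), and worms of 4 dishes were pooled as a sample. The methods describe the samples as independent biological replicates. Because whole worms were pooled, fewer cells of a tissue and less RNA per cell cannot be told apart in any value below.

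A spot's signal was its mean foreground intensity minus its median local background, and each signal was ranked within its array over all 22490 gene probes. A percentile of 100 stands for the brightest gene probe of an array. A gene with several probes was represented by the probe of highest mean percentile over the 6 arrays. Brightness of a 60-mer probe depends on its sequence as well as on its transcript, so the percentiles order probe signals and not copies of RNA. At the very top the order is compressed by the ceiling of the scanner: of the 185 genes in the top 1%, 180 had a saturated pixel on at least 1 array, although only 6 had on all 6.

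In a larva of this age the epidermis secretes a collagen-rich cuticle that is replaced at every moult, while the gonad multiplies germ cells and, in hermaphrodites of the last larval stage, starts to make sperm. Oocytes, eggshell and yolk belong to the adult hermaphrodite, whose intestine secretes the vitellogenins. Growth of all tissues rests on cytosolic ribosomes and mitochondrial respiration.

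Before levels were described, the arrays were compared with each other. Print block 36, 1 of 48 blocks of spots, had been read 1 spot column over on Cy5 controls 1 and 2. In that block their correlation with the other arrays was 0.293 and 0.297, against 0.913 and 0.949 once the block was moved by 1 column, and against 0.923 to 0.952 on the 4 arrays read correctly. The 469 gene probes of the block were therefore left out. Of 18889 genes with a probe, 355 were measured only there, which left 18534 genes. The Cy3 controls were dimmer than the Cy5 controls, with median signals of 137 to 151 against 694 to 1102 intensity units. Over the 18534 genes, log2 levels correlated at 0.910 to 0.931 between Cy3 controls, at 0.958 to 0.970 between Cy5 controls and at 0.922 to 0.955 between dyes. In the scanner headers Cy3 control 3 and Cy5 control 1 carried the same extract number. Whether they are the same extract is not stated, and with r = 0.934 their levels were no closer than those of other pairs of different dye. The deviations of the pair from their dye means correlated at 0.17, against -0.20 to 0.21 over the 9 pairs of different dye.

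Most genes were detected in control worms. A gene was called above background where its mean foreground exceeded the local background by more than 2 background SD. By that measure 10363 genes (55.9%) were above background on all 6 arrays and 2385 (12.9%) on none. Of 606 empty positions, 2 to 13 per array passed the same threshold. Protein-coding genes were above background on all 6 arrays in 59.7% of 16612 cases, and genes now annotated as pseudogenes in 19.3% of 937.

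Ribosomal protein genes supplied more of the brightest probes than any other list. Of 82 cytosolic ribosomal protein genes, 47 lay in the top 1% of all genes, in which 0.998% of all genes fall, and the median member lay at percentile 99.1 against 52.4 for all genes. The ribosomal genes supplied 14 of the 30 brightest genes. First of all genes was rpl-14, which encodes a protein of the large ribosomal subunit, at percentile 99.95 ± 0.045 (SD, n = 6). Its signals were 54865, 47822 and 63427 intensity units in Cy3 controls 1 to 3, and 63522, 61756 and 63203 in Cy5 controls 1 to 3. Cy3 control 2 was the dimmest for this gene, as for 22 of the 30 brightest genes. Next came rps-19, of the small subunit, at 99.90 ± 0.066 (SD, n = 6), with signals of 52117, 42233 and 57654 in the Cy3 controls and 60290, 64572 and 61778 in the Cy5 controls. Here the Cy5 controls lay above every Cy3 control. On every array 51 genes were in the top 1%, and 20 of them were ribosomal.

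Not all ribosomal genes were bright. Percentiles of rps-11, rps-23 and rpl-42 were 56.7, 50.5 and 48.8. The small rpl-41.1 and rpl-41.2 reached 22.04 and 60.3, and rpl-41.1 was above background on a single array. For a dim gene a weak probe and a scarce transcript cannot be told apart. Translation elongation factors were also high, with all 6 genes between percentile 92.1 for eef-1A.1 and 98.9 for eef-1G. The 29 translation initiation factors of the list used were lower, with a median of 83.6 and 0 in the top 1%. That list did not hold iff-1, which lay in the top 1% at 99.4. The ubiquitin genes ubq-2 and ubq-1, which encode the tag that marks proteins for degradation, lay at 99.7 and 99.4.

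**Figure D1:**
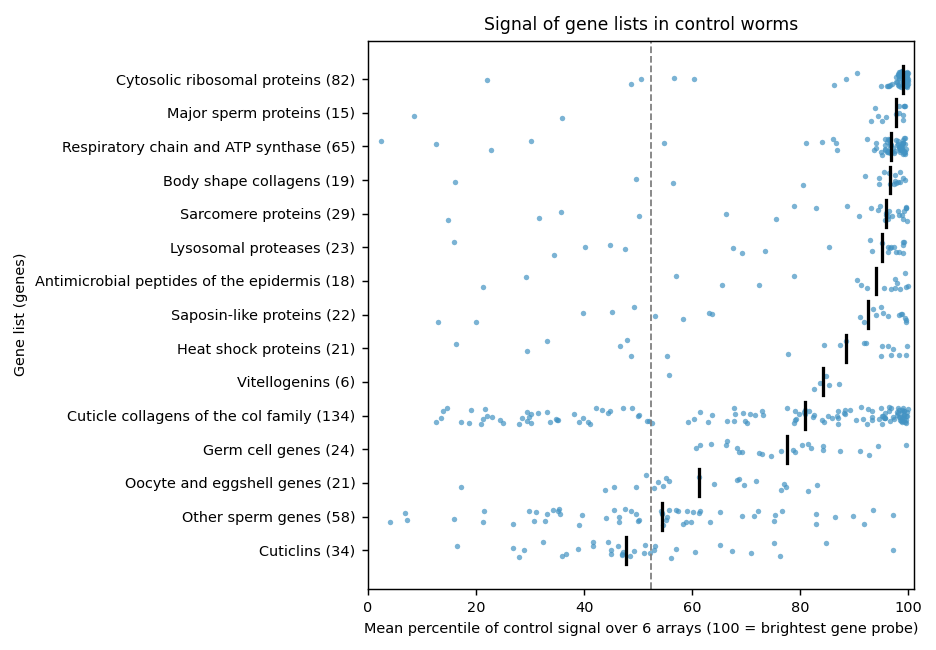
Mean percentile of control signal over 6 arrays (horizontal axis) for each gene (points) of 15 gene lists, with the median of each list (black bars) and of all 18534 genes (dashed line, 52.4). Ribosomal protein genes are packed at the right edge with a median of 99.1, while the col collagens spread over nearly the whole range.

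The share of all signal that came from these genes differed between dyes. Genes of the top 1% supplied 16.3 to 17.8% of the summed signal of all genes in the Cy3 controls and 8.66 to 10.6% in the Cy5 controls. For the ribosomal protein genes alone these shares were 6.27 to 7.11% and 3.01 to 4.00%. The median gene was brighter in Cy5, at 894 to 1309 against 169 to 186 intensity units.

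Other genes of very high level came from several tissues. The third brightest gene was the cuticle collagen col-155, at percentile 99.89 ± 0.080 (SD, n = 6). Its signals were 59674, 48276 and 59255 in the Cy3 controls and 58416, 62653 and 61694 in the Cy5 controls, with overlap between the dyes. The peptide gene nlp-24, listed with the antimicrobial peptides of the epidermis, followed at 99.88 ± 0.13 (SD, n = 6), with signals from 54921 to 63959 over the 6 arrays. Its lowest value, on Cy3 control 3, was still among the brightest of that array. The calponin-like gene cpn-3 lay at 99.81, the fatty acid and retinol binding protein gene far-2 at 99.78 and the nucleoside diphosphate kinase gene ndk-1 at 99.79. A high mobility group protein gene, hmg-1.1, lay at 99.87. Of the 185 genes in the top 1%, 70 belonged to none of the 46 lists, so the lists do not cover all abundant families. Among the 70 were several nspc genes, led by nspc-14 at 99.62, and pud-2.2 and pud-2.1 at 99.67 and 99.61. Of the 30 brightest genes 10 belonged to no list, among them F41F3.3 at 99.85, Y73B3A.18 at 99.85, dct-16 at 99.80 and Y119D3B.21 at 99.76. All 30 had a mean percentile of at least 99.68, and the widest spread over the arrays was that of Y119D3B.21, whose percentiles ran from 98.99 on Cy3 control 3 to 99.96.

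**Figure D2:**
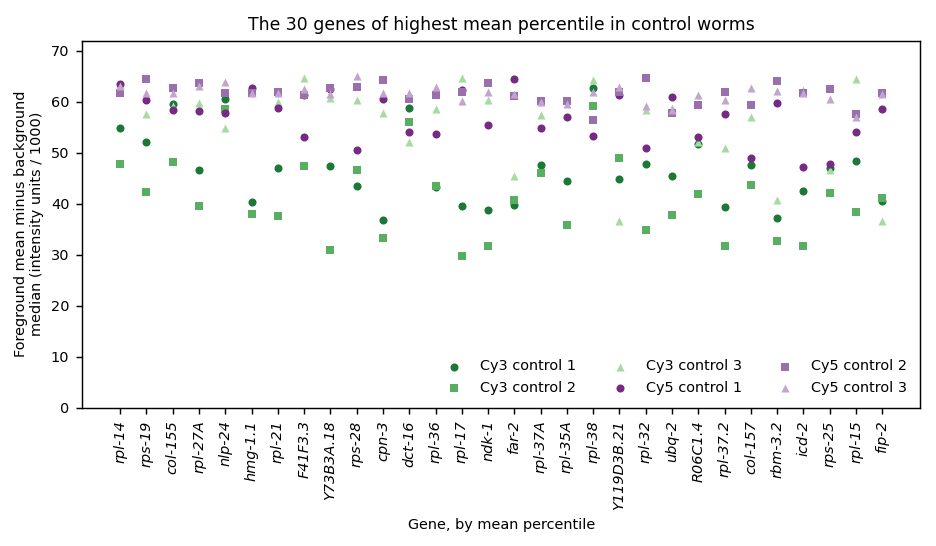
Signal (foreground mean minus background median, intensity units, scaled down on the axis as marked) of the 30 genes with the highest mean percentile, with 1 point per control channel (green for Cy3, purple for Cy5). Signals lie between 29799 for rpl-17 on Cy3 control 2 and 65120 for rps-28 on Cy5 control 3, and Cy3 control 2 is the lowest in 22 of the 30 genes.

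Mitochondrial energy genes were bright too. Of 65 genes of the respiratory chain and ATP synthase, 12 lay in the top 1%, and the median percentile was 96.8. Cytochrome c oxidase subunit genes led it, with cox-5A at 99.6, cox-6B at 99.4 and cox-4 at 99.4. ATP synthase subunit genes atp-4, atp-5 and atp-3 followed at 99.3, 99.2 and 99.03. At the other end isp-1, the Rieske protein gene of complex III, lay at percentile 2.37 and was above background on no array. With spots marked by the image software left out, 6 genes of the list were in the top 1%, which then held 123 genes in place of 185.

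Other genes of basic metabolism and protein turnover lay close behind. Glycolytic genes had a median of 93.1 over 19 genes, and gpd-2, a glyceraldehyde-3-phosphate dehydrogenase gene, was the member in the top 1% at 99.1. The vacuolar proton pump, which acidifies organelles, had a median of 96.8 over 20 genes, with vha-10 at 99.5 and vha-17 at 99.2. Proteasome subunits had a median of 94.8 over 32 genes, with pbs-4 at 99.1. Intracellular lipid-binding proteins had a median of 95.3 over 9 genes, led by lbp-6 at 99.5.

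Muscle genes were bright as a group, and 7 of 29 sarcomere genes lay in the top 1%. Besides cpn-3 these were the myosin light chain genes mlc-2 and mlc-3 at 99.5 and 99.2, the tropomyosin gene lev-11 at 99.5, unc-87 at 99.5, and the troponin genes pat-10 and tni-4 at 99.1 and 98.9. Myosin heavy chain genes lay lower, with unc-54 of the body wall at 98.1 and myo-3 at 95.7. Of the pharyngeal genes, myo-2 lay between these values and myo-1 lay at 88.7. Genes of giant muscle proteins ranged widely, with twitchin unc-22 at 78.9, unc-89 at 35.8 and ttn-1 at 31.6. The gene mlc-1, near-identical to mlc-2 in coding sequence, lay at 14.9 and was above background on no array. Actin genes act-1 to act-5 lay between 96.7 and 99.5. Cross-hybridization between act-1, act-2 and act-3, which are nearly identical, cannot be separated.

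Cuticle genes covered the whole range of signal. Among 134 genes of the col family the median percentile was 80.9 and 15 lay in the top 1%, led by col-155, col-157 at 99.7, col-94 at 99.7 and col-133 at 99.6. At the low end col-78 and col-52 lay at 13.6 and 12.6 and were above background on no array. The 19 collagens known from body shape mutants were brighter, with a median of 96.6. Of these sqt-1 and dpy-5 were in the top 1% at 99.3 and 99.01, and the furrow collagen genes dpy-2, dpy-7 and dpy-10 lay at 98.4, 97.5 and 96.6. The cuticle markers dpy-7, dpy-10, sqt-3, rol-6, bli-1 and bli-2 were above background on all 6 arrays, with a median percentile of 97.4. Of these bli-1 and bli-2 encode collagens of the struts of the adult cuticle, so the set does not mark larvae only. Cuticlins, which form the ridges and the insoluble layer of the cuticle, had a median of 47.8 over 34 genes, with cut-2 highest at 97.2.

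Genes of the gut, of lysosomes and of defence followed. In the saposin-like family, pore-forming peptides of the intestine, spp-5, spp-14 and spp-3 were in the top 1% at 99.6, 99.5 and 99.4, while spp-7 lay at 12.9. Lysosomal protease genes had a median of 95.2 over 23 genes, led by cpr-1 and asp-2 at 99.1. Of 18 epidermal antimicrobial peptide genes nlp-24, nlp-33 and nlp-26 were in the top 1%, and nlp-29 and nlp-32 of the same list lay at 29.2 and 21.2. Constitutive chaperone genes hsp-1 and hsp-90 reached 99.7 and 99.5. The stress-inducible small heat shock genes were lower, with hsp-16.41 at 77.7, hsp-16.2 at 46.7, and the near-identical copies hsp-16.20 and hsp-16.21 at 33.1 and 29.5. The inducible hsp-70 lay at 48.7.

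Of the genes of sperm, those of the major sperm protein were at high level in these larvae. Their product drives the crawling of nematode sperm, and their median percentile was 97.7 over 15 genes. In the top 1% were 5 members, msp-59, msp-51, msp-10, msp-56 and msp-76, between 98.96 and 99.35. These genes are near-identical copies and their probes may read each other's transcripts. Other sperm genes were lower, with a median of 54.4 over 58 genes and ssp-10 highest at 97.1. Germ cell genes had a median of 77.5 over 24 genes, and pgl-1, a component of germ granules, lay at 99.6. Of 14 oocyte and eggshell markers of the adult, 10 were above background on all 6 arrays and the rest on at least 1, with a median of 54.8 against 52.4 for all genes. All 6 vitellogenins were above background on all 6 arrays, with a median of 84.2.

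Enzyme families with members that modify foreign compounds were of medium level. The median percentile was 50.7 for 73 cytochrome P450 genes, 57.6 for 63 UDP-glucuronosyltransferases and 66.3 for 43 glutathione S-transferases. Their brightest members were cyp-31A2 at 83.8, ugt-22 at 97.01 and gst-13 at 98.9, the last of these in the top 1%. In the metal-binding group the metallothionein genes mtl-2 and mtl-1 lay at 96.9 and 76.2, and the ferritin genes ftn-2 and ftn-1 at 97.2 and 85.1. Among neuropeptides, FMRFamide-like genes had a median of 86.1 over 25 genes and insulin-like genes of 54.03 over 23.

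Several large gene families had a median percentile below that of all genes, 52.4. Of 1355 chemoreceptor genes, each used by few neurons, 603 were above background on no array and 65 on all 6, and the median percentile was 15.90. The medians of F-box genes (339 genes) and C-type lectins (224 genes) were 24.2 and 25.3, and that of nuclear hormone receptors (264 genes) was 45.3. None of these 4 families had a member in the top 1%.

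Genes that varied between the control cultures were found from the same intensities after normexp correction, log2 and quantile normalization, as the pooled SD around the mean of each dye (within-dye SD, 4 degrees of freedom). This SD does not contain the mean difference between dyes. It was computed for the 14226 genes above background on at least 3 of the 6 arrays. Its median was 0.58 on the log2 scale, and 1520 genes (10.7%) had a within-dye SD over 1. Spread differed with level. With the genes split into 4 equal groups by mean level, 2.45% exceeded 1 in the brightest group, where the median SD was 0.41, against 12.5%, 20.7% and 7.14% in the groups of falling level. Saturation and the quantile step limit the spread that bright spots can show. The normexp offset of 50 narrows log2 differences near background, so the 7.14% of the dimmest group says little of its steadiness. Among the 3214 genes of the brightest group with no saturated pixel on any array, a subset chosen after seeing the data, 2.52% exceeded 1 and the median SD was 0.43. Of the 185 genes in the top 1%, of which 180 had saturated pixels, 0 exceeded 1, which therefore says little of their steadiness. The most deviating array was a Cy3 control in 1242 of the 1520 genes, and the SD over the Cy3 controls alone exceeded 1 in 2939 genes (20.7%), over the Cy5 controls alone in 735 (5.17%). Only 230 genes exceeded 1 in each dye. With spots marked by the image software left out, 437 of 7887 genes exceeded 1. With plain background subtraction in place of normexp the count was 3251, and among the 10363 genes above background on all arrays it was 981.

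The vitellogenins varied as a family. All 6 genes, which encode the yolk proteins, had a within-dye SD over 1, with a median of 1.48. In each of them Cy3 control 2 was the highest of the Cy3 controls, and Cy5 control 3 was the lowest of the Cy5 controls. The log2 levels of vit-3 were 10.60, 13.90 and 12.05 in Cy3 controls 1 to 3 and 14.41, 13.47 and 10.13 in Cy5 controls 1 to 3. Its lowest Cy5 control thus lay below every other array and its highest above all of them. For vit-2 the log2 levels were 11.23, 13.83 and 11.37 in the Cy3 controls and 13.48, 13.04 and 11.61 in the Cy5 controls. The levels of vit-6, which encodes the precursor of the cleaved yolk proteins, were 11.40, 14.13 and 12.10, and 13.70, 13.23 and 11.40. The dyes overlapped in each of these genes, and the difference lay between arrays of the same dye. In percentiles the median vitellogenin moved between 71.5 on Cy5 control 3 and 94.9 on Cy3 control 2.

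Other probes of vit-3 and vit-4 varied to different extents. A second probe of vit-3, at percentile 64.3, had a within-dye SD of 2.14, and deviated from its dye mean by 2.65 on Cy5 control 1 and by -2.98 on Cy5 control 3. The probe used deviated by 1.74 and -2.54 there. A dim probe of vit-3 at percentile 33.7 had an SD of 0.56, and the other probes of vit-4 lay at percentiles of 24.6 and 7.89, near background. Sequences of vit-3, vit-4 and vit-5 are very similar, so their probes may read the same transcripts. Leaving out each array in turn kept 5 or 6 of the 6 genes over 1.

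**Figure D3:**
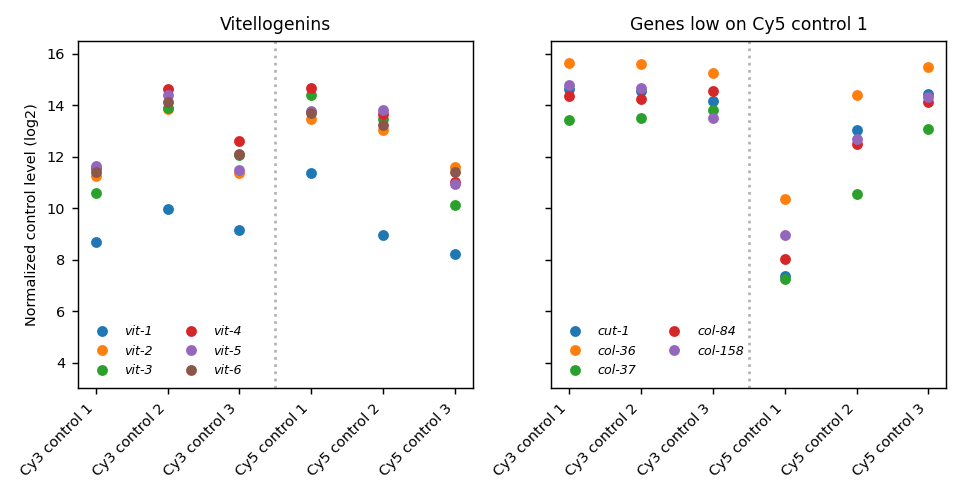
Normalized log2 level of the 6 vitellogenins and of the 5 cuticle genes that were lowest on Cy5 control 1 (colours), with 1 point per gene on each of the 6 control channels. Vitellogenins reach 9.96 to 14.62 on Cy3 control 2 and 8.21 to 11.61 on Cy5 control 3; the cuticle genes were chosen for their low values on Cy5 control 1, where they lie between 7.25 and 10.36.

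Oocyte and germ cell genes deviated partly on the same arrays. Of 20 oocyte and eggshell genes compared, 6 had an SD over 1, and 18 of 20 were below the dye mean on Cy5 control 3. The eggshell gene cpg-2 had log2 levels of 8.63, 10.79 and 10.29 in the Cy3 controls and 11.78, 11.79 and 8.19 in the Cy5 controls, with Cy3 control 1 and Cy5 control 3 the lowest of their dyes. The maternal gene pie-1, a repressor of transcription in germline blastomeres, had an SD of 1.47. Of 24 germ cell genes 6 exceeded 1, led by htp-1, a chromosome axis protein of meiosis, at 1.71. In that list 20 of 24 genes were below the dye mean on Cy5 control 3. Major sperm protein genes had no SD over 1, yet all 14 compared were below the dye mean on Cy3 control 1 and on Cy5 control 3. Their median deviations there were -0.42 and -0.51, against 0.02 and 0.04 over all genes. On Cy3 control 3, 16 of 20 oocyte and eggshell genes and 16 of 24 germ cell genes were above the dye mean. On Cy3 control 2 these numbers were 12 and 11. All 6 vitellogenins were above the dye mean on Cy3 control 2 and 0 on Cy3 control 3, so the lists share only part of their arrays. Whether the cultures differed in developmental stage was not tested.

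Other sperm genes held the largest share of variable genes after the vitellogenins, with 20 of 53 (37.7%) over 1. Their median deviation was 0.78 on Cy3 control 2 and between -0.34 and 0.23 elsewhere. Without Cy3 control 2 the count was 8, among genes above background on all arrays it was 9, and with spots marked by the image software left out it was 2. The sperm phosphatase genes gsp-4 and gsp-3, a near-identical pair, had SDs of 1.94 and 1.54. For gsp-4 the log2 levels were 9.68, 6.28 and 11.60 in the Cy3 controls and 10.95, 11.07 and 10.15 in the Cy5 controls, so that Cy3 control 2 stood apart as the lowest. That is the opposite of the list's direction on that array. The median pixel of the gsp-4 spot there was not above its local background. Levels of gsp-3 in the Cy3 controls were 8.53, 10.61 and 11.33, with a deviation of 0.45 on Cy3 control 2. A real difference and a faulty spot of gsp-4 cannot be told apart.

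Some cuticle genes were low on Cy5 control 1; those described in full were picked for that. The cuticlin gene cut-1 had log2 levels of 14.62, 14.57 and 14.15 in the Cy3 controls, and of 7.36, 13.02 and 14.43 in the Cy5 controls, with a within-dye SD of 2.65. Its signal was 227 intensity units on Cy5 control 1 and at least 13686 on the other arrays. For col-36 the log2 levels were 15.65, 15.59 and 15.26, and 10.36, 14.40 and 15.48. Those of col-37 were 13.40, 13.49 and 13.80, and 7.25, 10.55 and 13.08. Both were lowest on Cy5 control 1 and next lowest on Cy5 control 2, as were col-84 and col-158, with SDs of 2.24 and 2.01. These spots were even: the mean of their pixels on Cy5 control 1 was 0.853 to 1.15 times the median. Of 120 col genes compared, 8 deviated by less than -1 on Cy5 control 1, among them col-80 and col-90, and the median of the family there was -0.09. On Cy3 control 2, 13 col genes deviated by more than 1 and 3 by less than -1, and on Cy5 control 3 these numbers were 5 and 9. How many of all genes deviated as far on these arrays was not counted. Cy3 control 2 was the most deviating array in 529 of the 1520 genes with an SD over 1. The adult cuticle collagen gene col-19, picked after its values were seen, had log2 levels of 9.52, 12.57 and 9.72 in the Cy3 controls and of 11.49, 10.94 and 9.50 in the Cy5 controls. Within their dyes Cy3 control 2 was the highest and Cy5 control 3 the lowest, as in the vitellogenins. The family had 21 genes (17.5%) over 1. The body shape collagens had 0 of 18 over 1, with a highest SD of 0.94 for dpy-17.

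Among the 30 genes of largest spread, high values on an array were more frequent than low ones. In 19 of the 30 the most deviating array was high, and in 11 of these 19 the mean of the spot's pixels was over 2 times their median. T20F7.5 had the largest SD, 3.48, with signals of 19737 on Cy3 control 1 and 7 to 108 on the others. The mean of its pixels was 3.00 times the median on that array. For chil-14, whose signal was 10115 on Cy3 control 3 and 20 to 126 elsewhere, the factor was 19.7, and for ceh-40 on Cy3 control 2 it was 38.3. With the median of the pixels in place of the mean, the SD of ceh-40 was 0.35, while the other 29 genes stayed over 1. With marked spots left out 12 of the 30 genes could be measured, and 8 of these exceeded 1. Over all 1520 genes low values were more frequent: the most deviating array was high in 583 and low in 937. The uneven kind made up 37 of the 583 that deviated upwards.

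Other genes of the 30 were high on even spots. The homeobox gene ceh-43 had signals of 24, 109 and 85 in the Cy3 controls and 470, 27232 and 239 in the Cy5 controls, with a pixel mean 1.24 times the median on Cy5 control 2. The flavin monooxygenase gene fmo-2 had log2 levels of 8.83, 13.08 and 8.64 in the Cy3 controls and of 12.85, 11.14 and 11.28 in the Cy5 controls. The cytochrome P450 gene cyp-37B1 had levels of 9.33, 12.31 and 7.25, and 11.42, 11.73 and 10.38. Both were highest on Cy3 control 2 among the Cy3 controls, on spots whose pixel means were 0.954 and 0.975 times the median. The germline Argonaute gene alg-4 had levels of 8.83, 11.67 and 12.60, and 10.86, 11.55 and 8.08. It was lowest on Cy3 control 1 and Cy5 control 3, where most vitellogenins were also the lowest of their dye. These levels rest on 1 of 3 probes of alg-4. The others, at percentiles of 15.1 and 9.70, were above background on no array.

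**Figure D4:**
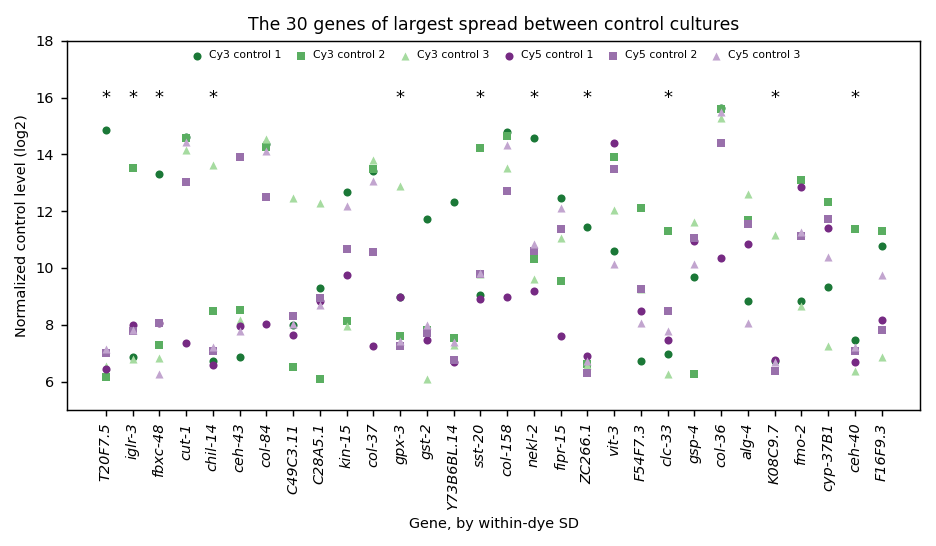
Normalized log2 level of the 30 genes with the largest within-dye SD, with 1 point per control channel (green for Cy3, purple for Cy5). Asterisks mark the 11 genes whose most deviating spot was high with a pixel mean over 2 times the pixel median; cut-1, col-84, col-37, col-158 and col-36 carry none and are lowest on Cy5 control 1.

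Enzyme families with members that modify foreign compounds varied in single genes. Over 1 were 10 of 60 cytochrome P450 genes (16.7%), 5 of 61 UDP-glucuronosyltransferases (8.20%) and 6 of 39 glutathione S-transferases (15.4%), with cyp-37B1, ugt-9 and gst-2 the most variable at 1.87, 1.56 and 2.05. These shares lie near that of all genes, 10.7%. Of 191 nuclear hormone receptors 29 (15.2%) and of 307 chemoreceptors 17 (5.54%) exceeded 1.

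A second probe that was itself above background on at least 3 arrays was available for 155 of the 1520 genes. Dimmer second probes, such as those of gsp-3 and alg-4, were not counted. On the most deviating array it deviated in the same direction in 112 (72.3%), and its own SD exceeded 1 in 26 (16.8%). Among genes with an SD of 1 or less these shares were 64.2% and 9.05% of 1381.

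Several bright lists showed a small spread. The median within-dye SD was 0.24 for ribosomal protein genes, 0.26 for the respiratory chain, 0.30 for sarcomere genes and 0.29 for body shape collagens, against 0.58 for all genes. The lists did not order alike by level and by SD. Lipid-binding proteins, with a median percentile of 95.3, had a median SD of 0.51, and glycolytic genes, at 93.1, had 0.34. All genes of these lists were compared. The major sperm proteins, at 97.7 over 15 genes, had 0.50 over the 14 compared. Lysozymes, at 72.0 over 16 genes, had 0.31 over the 12 that passed the background filter, so their values cover different sets. Most genes of the top 1% had saturated pixels, and the part of saturation in these small SDs was not tested. Only rps-23 and rps-11 of 81 ribosomal genes compared exceeded 1, at 1.48 and 1.16, and both were among the dim members. Intestinal markers had 0 of 7 genes over 1. Smaller shifts of whole lists were seen on single arrays. The transthyretin-related genes had a median deviation of -0.68 on Cy3 control 3 and of 0.59 on Cy3 control 2. The 4 metallothionein and ferritin genes had a median of -0.81 on Cy5 control 1, where mtl-2 was at log2 13.44 against 14.33 to 15.20 on the other arrays.

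**Figure D5:**
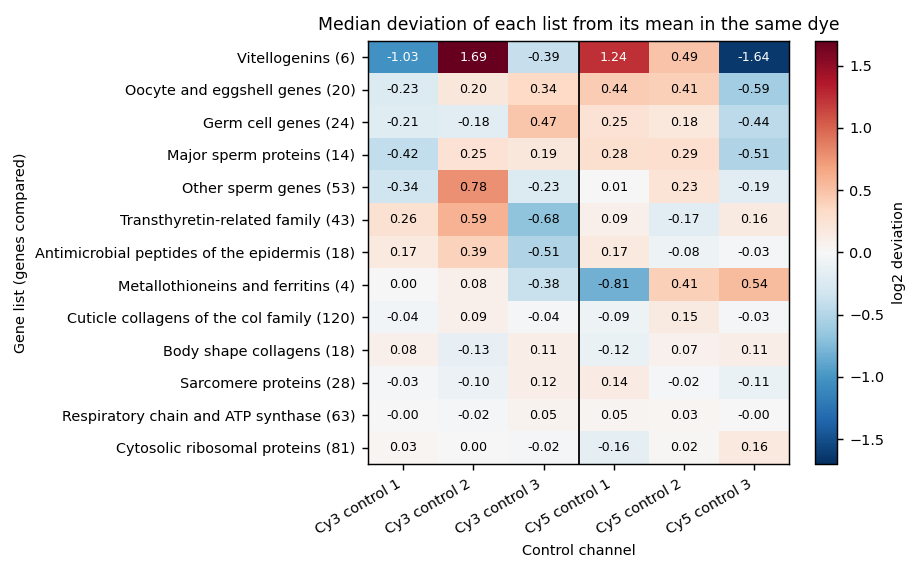
Median log2 deviation from the mean of the same dye for 13 gene lists (rows) on each of 6 control channels (columns), with the number of genes compared in brackets. Vitellogenins run from -1.64 on Cy5 control 3 to 1.69 on Cy3 control 2, while the respiratory chain stays between -0.02 and 0.05.

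Dye was compared last, as the mean of the Cy5 controls against that of the Cy3 controls, tested with limma over 14226 genes with Benjamini-Hochberg adjustment. Cy5 control was higher in 0 genes (0%) and lower in 1 (0.00703%), while 1244 genes had an unadjusted p under 0.05. The gene lower in Cy5 was H28G03.3, with log2 means of 8.02 in Cy5 and 12.58 in Cy3, a difference of -4.56 (adjusted p = 0.0101); it was named after this result was seen. Its signals were 3385, 2078 and 4179 in the Cy3 controls and 687, 473 and 202 in the Cy5 controls, so that the groups did not overlap. Its adjusted p ranged from 0.00186 to 0.0933 over the alternatives. With median scaling in place of quantile normalization 41 genes were higher and 777 lower, while the median difference over all genes moved from 0.07 to -0.33. Dye and the set of arrays scanned with it cannot be told apart.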

How the data were processed

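Control RNA was measured on 6 arrays of 60-mer probes. The authors deposited the scanner's intensity values per spot, without background subtraction or normalization, and a percent of saturated pixels; a deposited table of log2 ratios of LDM over control, made with limma per the labels, was not used. The genome build of the probes is not given in the sources used here. Probes were named by sequence name through the RefSeq gene table of WBcel235 (21382 of 22490 matched, 95.1%). Percentiles came from mean foreground minus median background. Spread and dye were computed in limma 3.58.1 (R 4.3.3), Python 3.11.15, numpy 2.4.6 and pandas 2.3.3, after normexp (offset 50), log2 and quantile normalization. The scripts were tested on simulated data. The print block that had been misread was left out after the data were seen, which departs from the plan. Genes named were the 30 of highest percentile, the 30 of largest spread, up to 4 of each list by either measure, all markers and their second probes; other list members were named after their values were seen. Members and lists were chosen with earlier results of these data known. The samples' number limits the precision, and percentiles, counts and spreads carry no test. Alternatives were another foreground, background, normalization, filter or probe rule, each dye alone and each array left out.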

Additional observations from a re-analysis of the deposited data

Results flagged for a closer look

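Spots of a plant control sequence named Cab, 10 per array and outside the gene probes, gave signal in the control channel far above the empty positions. Their median signal was 12732, 13608.5 and 12166 intensity units on Cy3 controls 1 to 3, and 20473, 24438 and 18141.5 on Cy5 controls 1 to 3. Empty positions had medians of 3 to 8 on the same arrays. Whether RNA of this sequence had been added to the samples is not given in the sources used here.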

How the results depend on the processing

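The count of genes above background on all arrays stayed between 9490 and 11934 under all alternatives tried, and that of list genes in the top 1% between 79 and 123. In the respiratory chain 6 genes were in the top 1% with marked spots left out. The number of genes with a within-dye SD over 1 was 3251 with plain subtraction and a floor of 50, 981 among genes above background on all 6 arrays and 437 with marked spots left out; it was 1235 to 1975 with 1 array left out, 1709 with the misread block kept, 1552 with it realigned and 1788 with pixel medians, the last 3 chosen after seeing the data. For other sperm genes it was 9 among genes above background on all 6 arrays, 2 with marked spots left out and 8 to 25 with 1 array left out. Between dyes 818 genes passed in limma with median scaling, 0 with plain subtraction and 0 to 2 with 1 array left out. With the replicate number as a block 0 genes passed, with an adjusted p of 0.0851 for H28G03.3. The deviations of same-numbered arrays correlated at -0.16, 0.01 and -0.20. Whether the numbers mark a pairing was not tested. Dim Cy3 signal limits what can be said of low genes: 62.1 to 64.5% of gene probes were above background there, against 77.3 to 82.3% in Cy5.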
